A study of Mus musculus with 2 samples.

Results

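Reg3g, Gp2, Ccl6, Ccl9, Ccl20, Lypd8, Muc13, Guca2b, Prap1 and Pigr, 10 of the 32285 genes counted in these libraries, are known as products of mucosal epithelium and were examined here in thymic epithelial cells (TECs). They were chosen by expression values of the same cells, since several of them were leading genes of a cluster of medullary TECs (mTECs) in earlier results. Their levels by cell type and by Aire are therefore given as a description, without a test. Each symbol was found once in the files. All 10 genes passed each minimum of counts used below over all kept cells, but not in every cluster or subset.

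TECs were sorted as EpCAM+ CD45- TER119- cells from C57BL/6 mice, 9 weeks old by the sample characteristics (the protocol text gives another age), 15 days after sublethal γ-irradiation or without irradiation. Cells of 3 mice were pooled for each condition and measured in 1 droplet library each, so no individual mouse and no replicate can be told apart. Values are unique molecular identifiers (UMIs), each marking a captured RNA molecule. The library with 4937 barcodes carries the label Radiation and the library with 7167 barcodes the label Control. The cell numbers that the study states for the 2 conditions go the other way round. It gives 3233 control and 5070 irradiated cells after filtering. With the same limits, exactly 3233 cells were kept here in the smaller and 5070 in the larger library. The libraries are therefore called the smaller and the larger library, and a difference between them is not an effect of irradiation with a known direction.

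The medulla of the thymus shows developing T cells many proteins of other organs, so that T cells reacting to them are removed or diverted. Aire, a nuclear regulator made by a stage of mTECs, releases many of these genes in patterns that differ from cell to cell. Cells that have passed the Aire stage can take on programs of peripheral epithelia, among them those of tuft cells, keratinocytes, microfold cells and enterocytes, and such cells are often called mimetic cells. Enterocytes line the gut and carry a protective layer on their surface. Microfold cells lie over lymphoid follicles of the gut and pass antigens to the immune cells below.

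The kept cells, with over 2000 and under 7500 detected genes and under 15% mitochondrial UMIs, numbered 3233 in the smaller and 5070 in the larger library. Their median depths were 13412 and 13003.5 UMIs, and 5 cell barcodes were common to both libraries. The cells were clustered with the 10 genes left out of the genes used, which gave 14 clusters, C0 to C13. C8 was cTEC-like, C3 Aire+ mTEC-like, C6 TA-mTEC-like, C9 tuft-like and C10 keratinocyte-like post-Aire by marker lists. C12 was neuroendocrine-like and C13 ciliated-like, with 41 and 20 cells. C1 was rich in Aire but led by S100a9, and C2 was led by Pnp2, Hsd17b6, Muc13, Ccl9, Gpa33, Anxa10 and Lypd8, so both kept their numbers. Names and sizes of these clusters are a reconstruction and can differ from those of the study.

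C2 held most of the RNA of each of the 10 genes in the smaller library and of 9 of them in the larger library. Between 55.8% and 92.5% of a gene's UMIs lay in C2, apart from Reg3g with 54.1% and 41.2%. C2 made up 890 of the cells, 415 in the smaller and 475 in the larger library. At a finer resolution of 1.0, C2 parted mainly into a subset of 605 cells, here F6, and a subset of 242 cells, here F12. F12 alone held 34.3% to 88.5% of a gene's UMIs, with 119 cells in the smaller and 123 cells in the larger library. Its leading genes were Guca2b, Ccl6, Fabp1, Hsd17b6, Muc13, Ccl9, Tm4sf20, Lgals4, Ccl20 and Sis. Aire was at 1.06 UMIs per 10000 in F12 and at 5.97 in F6.

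The levels in each cluster were sums of a gene's UMIs per 10000 UMIs of that cluster. Their 95% intervals are exact Poisson intervals and cover counting error only. The cTEC-like cluster C8 serves as the comparison for free RNA, since these genes should be absent from its cells.

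**Figure D1:**
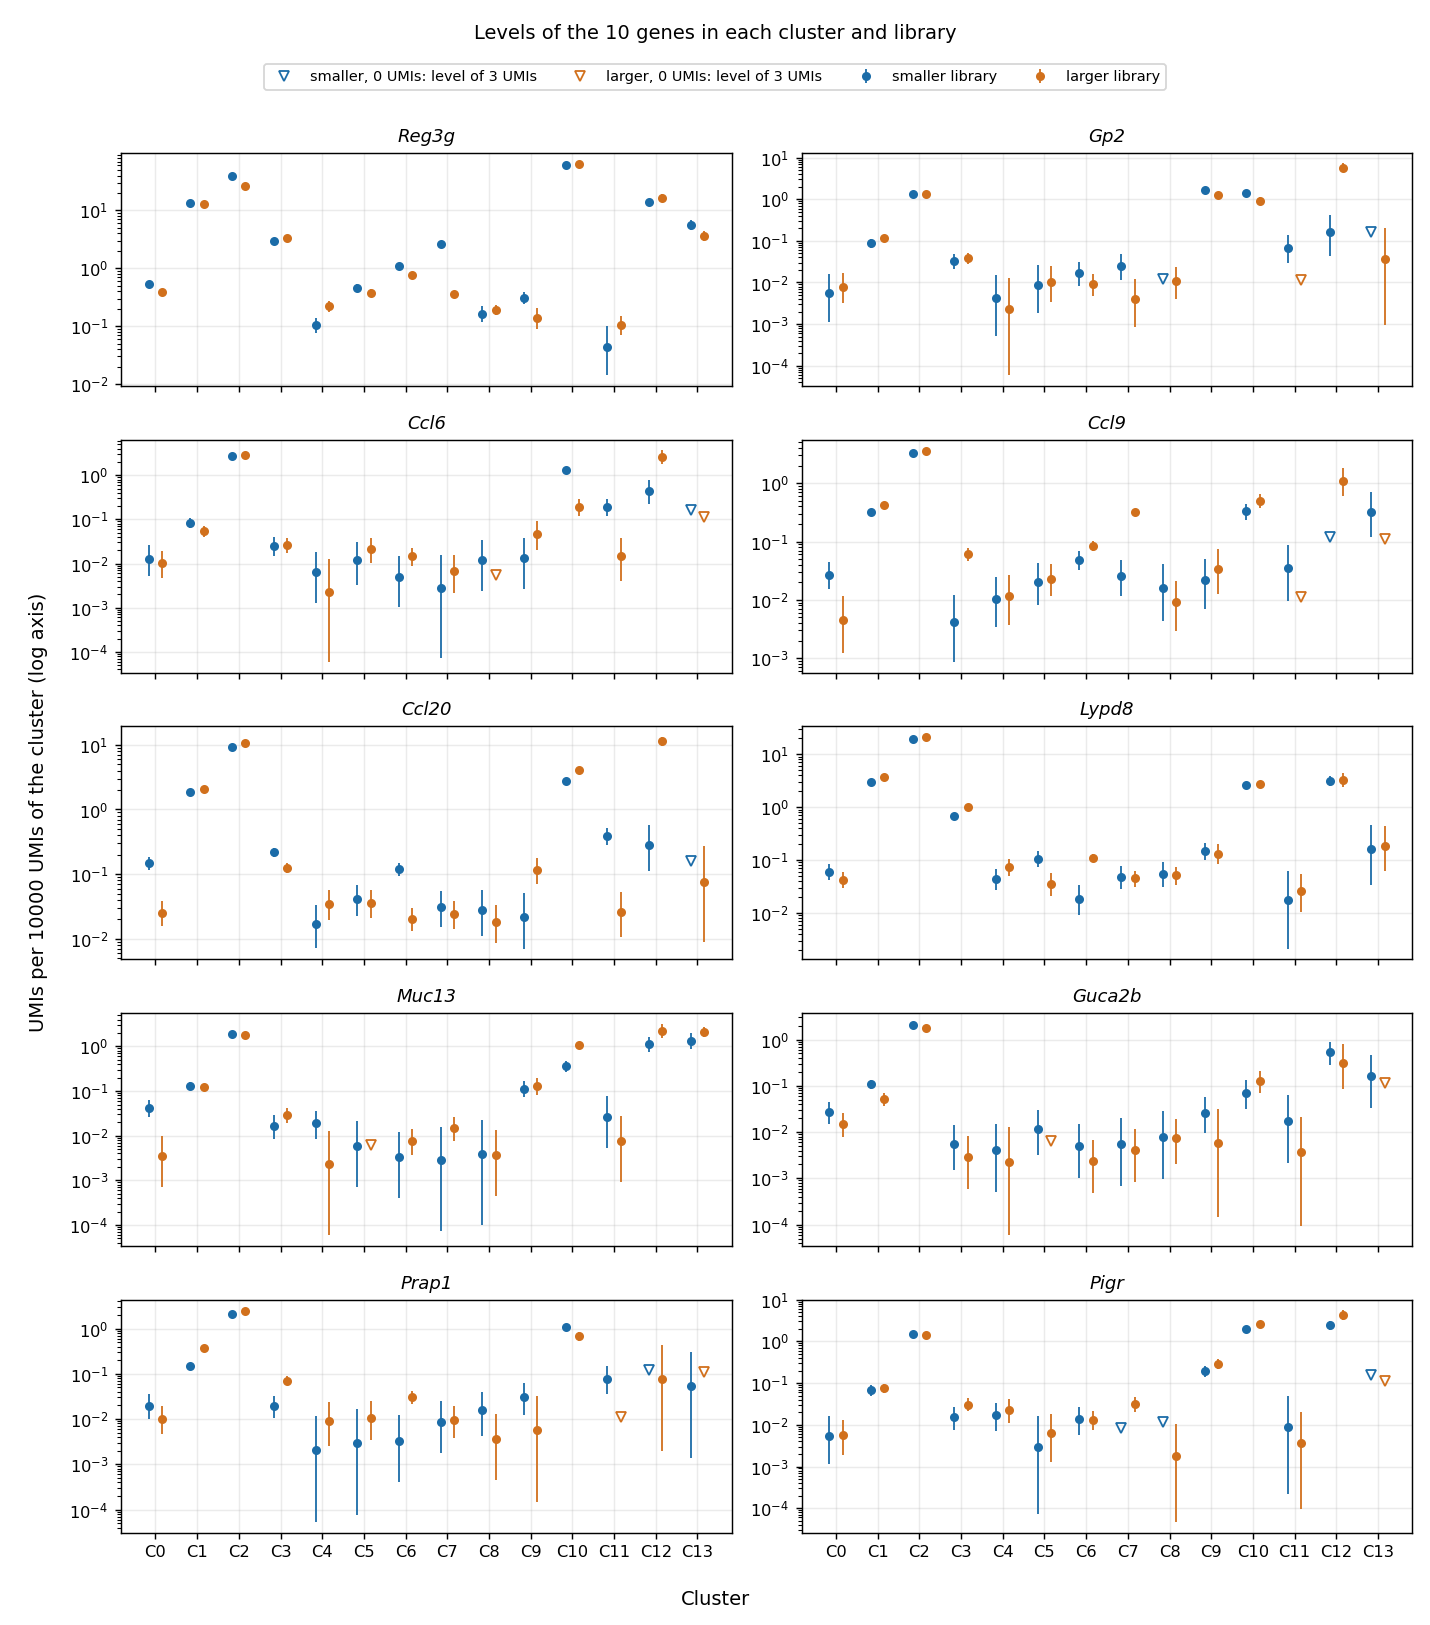
Level of each gene (log axis, UMIs per 10000 UMIs of the cluster) in clusters C0 to C13, in the smaller (blue) and the larger library (orange). Bars are exact Poisson 95% intervals and cover counting error only, and open triangles mark 0 UMIs at the level of 3 UMIs. All 10 genes lie far higher in C2 than in C8, Gp2 is also high in C9, and Reg3g and Pigr are high in C10.

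Reg3g encodes a C-type lectin that kills Gram-positive bacteria at the gut surface. It lies at chr6:78466269-78468872 on the minus strand (build GRCm38). Its level in C10 was 59.9 per 10000 in the smaller and 63.5 in the larger library. In C2 it was 38.9 (95% interval 38.4 to 39.4) and 26.7 (26.3 to 27.1), and in C1 13.3 and 12.8. C3 had 2.99 and 3.38, while C8 had 0.16 and 0.19. The order C10, C2, C12, C1 was the same in both libraries. In C1 and C3 Reg3g was also spread over many cells. With cells thinned to 4000 UMIs, 69.8% of C1 cells in the smaller and 65.9% in the larger library had a Reg3g UMI, against 5.30% and 5.06% of C8 cells. Without thinning, the shares in C8 were 15.9% and 16.01%, at median depths of 15109 and 14041 UMIs.

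Gp2 encodes a receptor for bacterial fimbriae on the surface of microfold cells. It lies at chr7:119442537-119459285 on the minus strand. It was near 1 UMI per 10000 in 3 clusters of different kind. C2 had 1.32 in each library (1.24 to 1.41 in both), the tuft-like C9 had 1.64 (1.48 to 1.81) and 1.26 (1.10 to 1.44), and C10 had 1.45 and 0.92. In C9, 35 of 153 cells of the smaller library held 377 Gp2 UMIs, and 22 of 147 cells of the larger library held 220. The highest cell of C9 had 41 and 35 of these UMIs, so the level there did not rest on a single cell. Among the C9 cells with at least 5 Gp2 UMIs, 22 and 13 in the 2 libraries, 2 and 1 also had a UMI of Ccl6, Ccl9 or Ccl20. All C9 cells together held few such UMIs, 3, 5 and 5 in the smaller and 8, 6 and 20 in the larger library. The share of all C9 cells with such a UMI was not set beside these counts. After thinning, 17.0% (11.4 to 23.9) and 12.2% (7.42 to 18.7) of C9 cells had a Gp2 UMI. In C8, 0 of 151 cells of the smaller library did, which allows a share of up to 1.99% by 3 counts of the total and 2.41% by the exact interval, and 0.56% of cells did in the larger library. The value of 5.79 in C12 of the larger library came from a single cell, which held all 74 Gp2 UMIs, and the level of 1.45 in C10 rested on 1 cell with 110 of 190 UMIs.

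Ccl6, Ccl9 and Ccl20 encode chemokines. Ccl6 and Ccl9 attract myeloid cells through Ccr1, and Ccl9 is known to draw dendritic cells to the dome under gut microfold cells. Ccl20 attracts Ccr6-bearing B cells, T cells and dendritic cells and is made by the epithelium over lymphoid follicles. Ccl6 (chr11:83587882-83593087) and Ccl9 (chr11:83572919-83578636) are neighbours on the minus strand, and their starts lie 14451 bases apart. Ccl20 lies at chr1:83116766-83119167 on the plus strand. Ccl6 overlaps the gene E230016K23Rik in the annotation, Muc13 overlaps Gm15657 and Prap1 overlaps Fuom, so reads of these pairs could be shared.

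In C2, Ccl6 had 2.71 UMIs per 10000 in the smaller and 2.87 in the larger library. Ccl9 had 3.29 and 3.55, and Ccl20 had 9.23 and 10.6. The next levels among clusters of over 100 cells were lower, for Ccl6 1.34 and 0.19 in C10, for Ccl9 0.33 and 0.50 in C10 and for Ccl20 2.72 and 4.06 in C10. In the small C12, with 18 cells in the larger library, Ccl20 was at 11.3 there, above its level in C2, and Ccl6 at 2.66. Of the 356 Ccl20 UMIs of C10 in the smaller library, 204 came from 1 cell, and of the 175 Ccl6 UMIs, 68 did. In C8 the larger library had no Ccl6 UMI, and the other levels of the 3 chemokines there were 0.0092 to 0.028. Within C2 these genes were concentrated in F12, where Ccl6 had 8.77 and 10.3, Ccl9 9.77 and 11.1, and Ccl20 27.7 and 34.6. In F6 the same genes had 0.088 and 0.11, 0.49 and 0.79, and 1.24 and 1.15.

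Lypd8, Muc13, Guca2b and Prap1 belong to the surface and the secretions of enterocytes. Lypd8 (chr11:58379043-58390728, plus strand) encodes a protein that keeps flagellated bacteria away from the colon epithelium. Muc13 (chr16:33794037-33819934, plus strand) encodes a mucin anchored in the apical membrane. Guca2b (chr4:119656607-119658954, minus strand) encodes uroguanylin, a peptide that controls salt and water secretion. Prap1 (chr7:140093395-140097200, plus strand) encodes an acidic protein of the intestinal epithelium that is rich in proline. Pigr (chr1:130826684-130852249, plus strand) encodes the receptor that carries IgA and IgM across the epithelium.

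Lypd8 was at 19.3 (19.0 to 19.7) and 21.1 (20.7 to 21.4) UMIs per 10000 in C2 and at 3.04 and 3.64 in C1. Muc13 was at 1.90 and 1.82 in C2, and Guca2b at 2.11 and 1.77. In the larger library Muc13 was higher in the small clusters C12, at 2.27, and C13, at 2.13, than in C2. Prap1 was at 2.11 and 2.42 in C2. Pigr was at 1.54 and 1.44 in C2 and higher in C10, at 1.98 and 2.64. The tuft-like C9 also held Pigr, at 0.20 and 0.29. In C8 Lypd8 was at 0.055 and 0.051, and the other 4 genes were at 0.016 or less. In F12 Lypd8 reached 52.4 and 59.0, Muc13 5.68 and 5.88, Guca2b 6.78 and 6.19, Prap1 5.61 and 7.61, and Pigr 3.91 and 4.23. Guca2b had 88.5% and 87.5% of its UMIs in F12, and Ccl6 had 83.5% and 88.3%.

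Among clusters of at least 100 cells, 7 of the 10 genes had their highest level in C2 when both libraries were summed, while Reg3g and Pigr were highest in C10 and Gp2 in C9. No share of all genes was set beside this count, and several of the 10 had been chosen as leading genes of an mTEC cluster. The levels of Gp2 in C9 and C2 of the larger library, 1.26 and 1.32, did not differ beyond counting error.

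Few cells carried most of the RNA. The top 1% of cells, ranked for each gene and library, held 54.6% to 95.9% of its UMIs. Of a gene's UMIs, 50% came from as few as 5 cells, for Ccl6 in the larger and Guca2b in the smaller library, and from 38 cells at most, for Reg3g in the larger library. At the same time 59.5% of cells of the smaller library had no Reg3g UMI, and 98.0% of the larger library had no Guca2b UMI. Thinned cells of F12 held UMIs of 4.81 and 4.85 of the 10 genes on average, against 1.25 in C1 in each library, 0.53 and 0.51 in C3, and 0.086 and 0.087 in C8. At least 5 of the 10 genes were found in 52.1% and 51.2% of F12 cells.

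Single cells show these levels directly. The cell with the most Reg3g in the smaller library had 4941 Reg3g UMIs among 31473, or 15.7% of its RNA, with no Aire UMI. It held UMIs of all 10 genes, with 307 of Lypd8, 104 of Ccl9, 69 of Ccl20, 55 of Muc13 and 1 of Gp2. The cell with the most Lypd8 there had 1882 Lypd8 UMIs, 110 of Prap1, 73 of Muc13 and 71 of Pigr. It also had 26 of Ccl6 and 10 of Ccl9, but none of Gp2, Ccl20 or Guca2b. The cell with the most Ccl6 there held all 10 genes, with 399 UMIs of Ccl20, 137 of Ccl6, 40 of Guca2b and 25 of Muc13. The cell with the most Ccl20 there had 428 Ccl20 UMIs, 144 of Ccl9 and 74 of Ccl6, and none of Lypd8, Muc13, Guca2b, Prap1 or Pigr. In the larger library, the cell with the most Ccl20 had 528 Ccl20 UMIs, 233 of Ccl6, 131 of Ccl9 and 61 of Gp2, beside 69 of Lypd8. The cell with the most Pigr in that library had 61 Pigr UMIs, 64 of Prap1 and 53 of Lypd8, and none of Gp2, Ccl6, Ccl9 or Ccl20. Cells of these kinds lay in F12. The cell with the most Gp2 in the smaller library lay in C10, with 110 Gp2 UMIs and no UMI of the 3 chemokines.

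Over the cells of C2 the genes fell into 2 groups by Pearson's r of log(1 + UMIs per 10000). The grouping was made after the r values had been seen. Gp2, Ccl6, Ccl9 and Ccl20 are called the chemokine group here, and Lypd8, Muc13, Guca2b, Prap1 and Pigr the enterocyte group. The correlations are across single cells, which share library, depth and free RNA and are not replicates. The median r was 0.56 in the smaller library (415 cells) and 0.59 in the larger library (475 cells) over the 6 pairs of the chemokine group. It was 0.44 and 0.45 over the 10 pairs of the enterocyte group, and 0.14 and 0.15 over the 20 pairs between the groups. The highest r was that of Ccl6 with Ccl9, at 0.78 and 0.73. Gp2 with Pigr was at -0.04 and 0.00. Muc13 was correlated across the groups, with 0.44 and 0.37 for Ccl9. Reg3g was put in neither group. Its highest r was for Muc13, at 0.43 and 0.47. Its lowest was for Ccl20 in the smaller library, at 0.19, and for Ccl6 in the larger, at 0.17. With Guca2b it was also at 0.17 in the larger library.

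**Figure D2:**
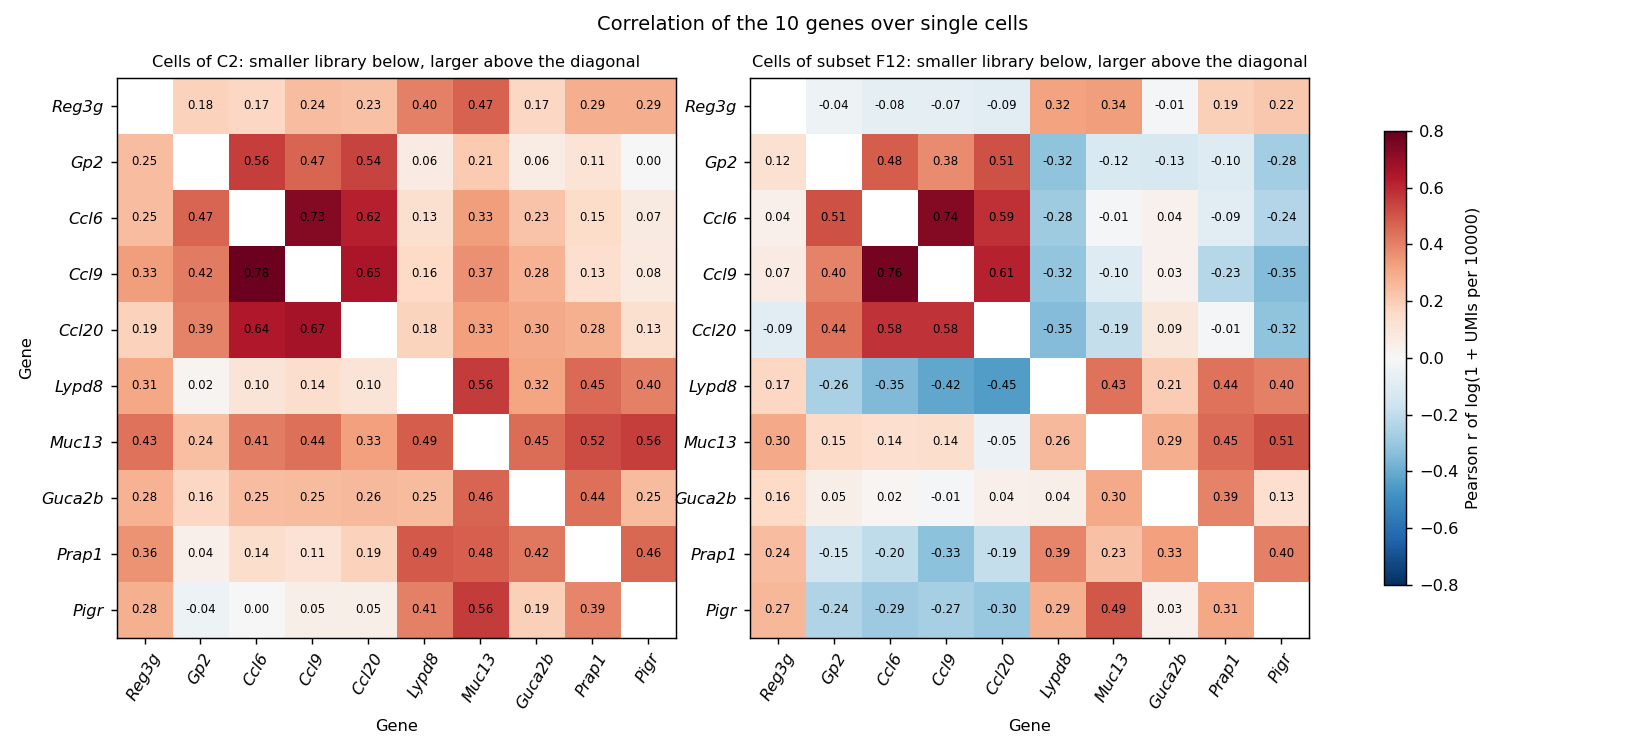
Pearson r of log(1 + UMIs per 10000) for each pair of genes, over the cells of C2 (left) and of its subset F12 (right), with the smaller library below and the larger library above the diagonal. The chemokines and Gp2 form a block of positive r in both panels, and most pairs between this block and the other 5 genes are negative in F12.

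Within F12, where every gene was high, the r values between the groups were lower than over C2. The F12 cells are part of the C2 cells from which the groups were made, so they are no separate check of the grouping. The median r stayed at 0.54 and 0.55 within the chemokine group and was lower than over C2, at 0.29 and 0.40, within the enterocyte group. Between the groups it was negative, at -0.19 and -0.16. Lypd8 with Ccl20 was at -0.45 and -0.35. Guca2b was near 0 with each of the 4 genes of the chemokine group in the smaller library, from -0.01 to 0.05. Muc13 was at 0.15, 0.14 and 0.14 with Gp2, Ccl6 and Ccl9 in the smaller library, and at -0.12, -0.01 and -0.10 in the larger. Reg3g had its highest r in F12 for Muc13, at 0.30 and 0.34, and its lowest for Ccl20, at -0.09 in both libraries.

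Of the F12 cells with at least 10 UMIs of the 9 genes after thinning, 103 in the smaller and 108 in the larger library, 24.3% and 20.4% had at least 90% of these UMIs in the chemokine group. In 37.9% and 38.9% at least 90% were in the enterocyte group, and the other 37.9% and 40.7% were mixed. The smaller library thus had 25 cells of the first kind, 39 of the second and 39 mixed. The larger library had 22, 42 and 44. These sums weigh mainly 1 gene of each group. Before thinning, F12 held 10445 and 10460 UMIs of Lypd8, against at most 1351 and 1349 of another gene of its group. It held 5518 and 6125 UMIs of Ccl20, against at most 1947 and 1963 of another gene of the chemokine group. Doublets were kept out by nothing but the maximum of 7500 detected genes, and their part among the mixed cells was not tested.

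**Figure D3:**
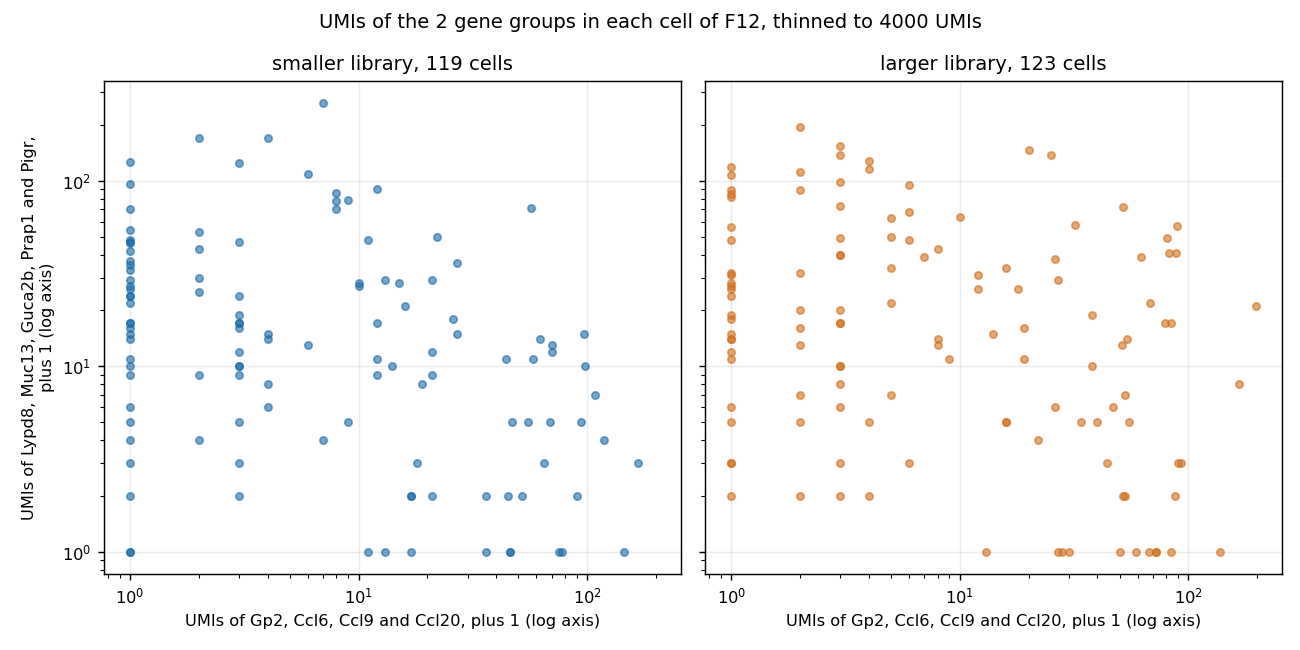
UMIs of the enterocyte group against UMIs of the chemokine group (both plus 1, log axes) in each F12 cell thinned to 4000 UMIs, with 119 cells of the smaller library on the left and 123 of the larger on the right. Cells spread along both axes, and 39 and 44 of those with at least 10 UMIs are mixed. Lypd8 and Ccl20 have the most UMIs of their groups.

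Pairs of genes were also counted by detection in the same thinned C2 cell. Ccl6 and Ccl9 were found together in 44 cells of the smaller library, against 12.2 from the product of their single shares, and in 43 against 11.04 in the larger library. Gp2 and Ccl6 were together in 15 against 3.77 and in 21 against 3.40 cells. Gp2 and Pigr were together in 3 against 4.47 cells in the smaller and in 6 against 4.93 cells in the larger library. Pairs across the groups also lay above the product, among them Ccl20 with Guca2b, in 23 against 10.3 and in 27 against 9.12 cells, and Ccl6 with Muc13, in 31 against 13.01 and in 31 against 11.2 cells. All 10 genes were concentrated in F12, so pairs of them tend to exceed a product taken over the whole of C2. No product was taken within F12, so these counts cannot show co-detection beyond shared membership of that subset. Cells with at least 10 UMIs of a gene were counted over all kept cells, without thinning. For Ccl6 these were 39 and 33 cells in the 2 libraries. Of them, 82.1% (66.5 to 92.5) and 81.8% (64.5 to 93.0) also had at least 10 Ccl9 UMIs. The reverse share was lower, 55.2% and 33.8% of 58 and 80 cells with at least 10 Ccl9 UMIs.

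Promoters of 5 of the genes are shown because these genes differ in group and in motif content. They are Ccl6 and Ccl9, the neighbours with the highest r, Ccl20 of the same group, Muc13 of the enterocyte group and Reg3g. All 10 genes matched the RefSeq table of build GRCm38.p6, with 12 promoters. Each sequence is the 250 bases before the start of the gene, 5′ to 3′ on the strand of the gene, at chr11:83593088-83593337 (minus) for Ccl6, chr11:83578637-83578886 (minus) for Ccl9, chr1:83116516-83116765 (plus) for Ccl20, chr16:33793787-33794036 (plus) for the first start of Muc13 and chr6:78468875-78469124 (minus) for Reg3g. Capitals mark matches, on either strand, to 6 motifs. They are TATAAA for the core promoter box of that name, GAGGAA for PU.1 and Spi-B, GGGNNTTTC for NF-kB, AAAGTCC for HNF4 as a short motif, TTTATG for Cdx, and finally TGANTCA for AP-1.
Ccl6: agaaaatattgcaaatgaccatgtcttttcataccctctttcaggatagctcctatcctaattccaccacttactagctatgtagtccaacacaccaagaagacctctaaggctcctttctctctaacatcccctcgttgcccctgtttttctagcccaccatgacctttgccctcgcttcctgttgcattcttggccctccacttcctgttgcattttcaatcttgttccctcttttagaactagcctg
Ccl9: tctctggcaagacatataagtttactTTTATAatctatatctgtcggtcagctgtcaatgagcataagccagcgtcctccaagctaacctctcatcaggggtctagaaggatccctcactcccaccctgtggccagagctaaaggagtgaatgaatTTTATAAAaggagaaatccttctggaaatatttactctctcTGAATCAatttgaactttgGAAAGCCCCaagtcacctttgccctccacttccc
Ccl20: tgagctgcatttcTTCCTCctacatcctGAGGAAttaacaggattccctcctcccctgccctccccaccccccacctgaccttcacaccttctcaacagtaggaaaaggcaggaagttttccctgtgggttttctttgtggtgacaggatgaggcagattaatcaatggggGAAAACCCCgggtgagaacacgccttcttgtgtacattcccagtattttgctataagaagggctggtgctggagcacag
Muc13: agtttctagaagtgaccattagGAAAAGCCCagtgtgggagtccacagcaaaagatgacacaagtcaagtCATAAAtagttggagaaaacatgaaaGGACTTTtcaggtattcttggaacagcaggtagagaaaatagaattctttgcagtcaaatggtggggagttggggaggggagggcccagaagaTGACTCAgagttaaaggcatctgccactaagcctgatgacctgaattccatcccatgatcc
Reg3g: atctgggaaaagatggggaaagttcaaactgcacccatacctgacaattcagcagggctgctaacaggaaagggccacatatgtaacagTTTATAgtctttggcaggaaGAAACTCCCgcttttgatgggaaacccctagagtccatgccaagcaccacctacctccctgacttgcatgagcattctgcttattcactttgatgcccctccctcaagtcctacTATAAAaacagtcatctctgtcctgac

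The NF-kB letters were found in 4 of the 12 promoters, those of Ccl20, Ccl9, Reg3g and the first start of Muc13, and in 3.72% of 32851 promoters of the table. The core promoter box was found in Ccl9, Gp2 and Reg3g (12.4% of all promoters) and the PU.1 and Spi-B core in Ccl20 (23.3%). The HNF4 motif was in both starts of Muc13 (3.58%), the Cdx letters in its first start (10.8%), and the AP-1 letters in Ccl9 and in both starts of Muc13 (6.75%). In the second start of Muc13 the HNF4 and AP-1 matches overlapped, and in the other promoters no motif overlapped another. Ccl6, Lypd8, Guca2b, Prap1 and Pigr held none of the 6 motifs in this window. The promoters of Ccl6 and Ccl9 shared 146 identical bases over 208 aligned bases, which is 58.4% of the 250 bases. Of this pair, only Ccl9 held motif letters. No other pair of promoters was set beside this value, so it cannot show whether these promoters are more alike than unrelated ones. A match is a run of letters and not a shown binding site.

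Across the Aire lineage, the genes were lower in the cells with the most Aire than in cells without Aire, although not each step between neighbouring bins went down. Cells of C1, C2 and C3, the nondividing clusters with at least 2 Aire UMIs per 10000, were binned by their Aire level. In the smaller library Reg3g went from 82.6 UMIs per 10000 in 150 cells without Aire, over 16.1, 17.2, 7.43 and 6.56, to 4.20 in 110 cells with over 20 Aire UMIs per 10000. In the larger library it went from 46.8, over 29.2, 11.7, 8.74 and 5.39, to 4.53. Ccl9 went from 6.01 to 0.049 in the smaller and from 6.15 to 0.12 in the larger library between the same ends. Lypd8 went from 26.8 to 2.54 and from 33.3 to 2.06. Reg3g and Lypd8 were still at several UMIs per 10000 in the cells with the most Aire, while Guca2b was at 0.0097 and 0.019 there, from 4.30 and 3.80 without Aire.

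**Figure D4:**
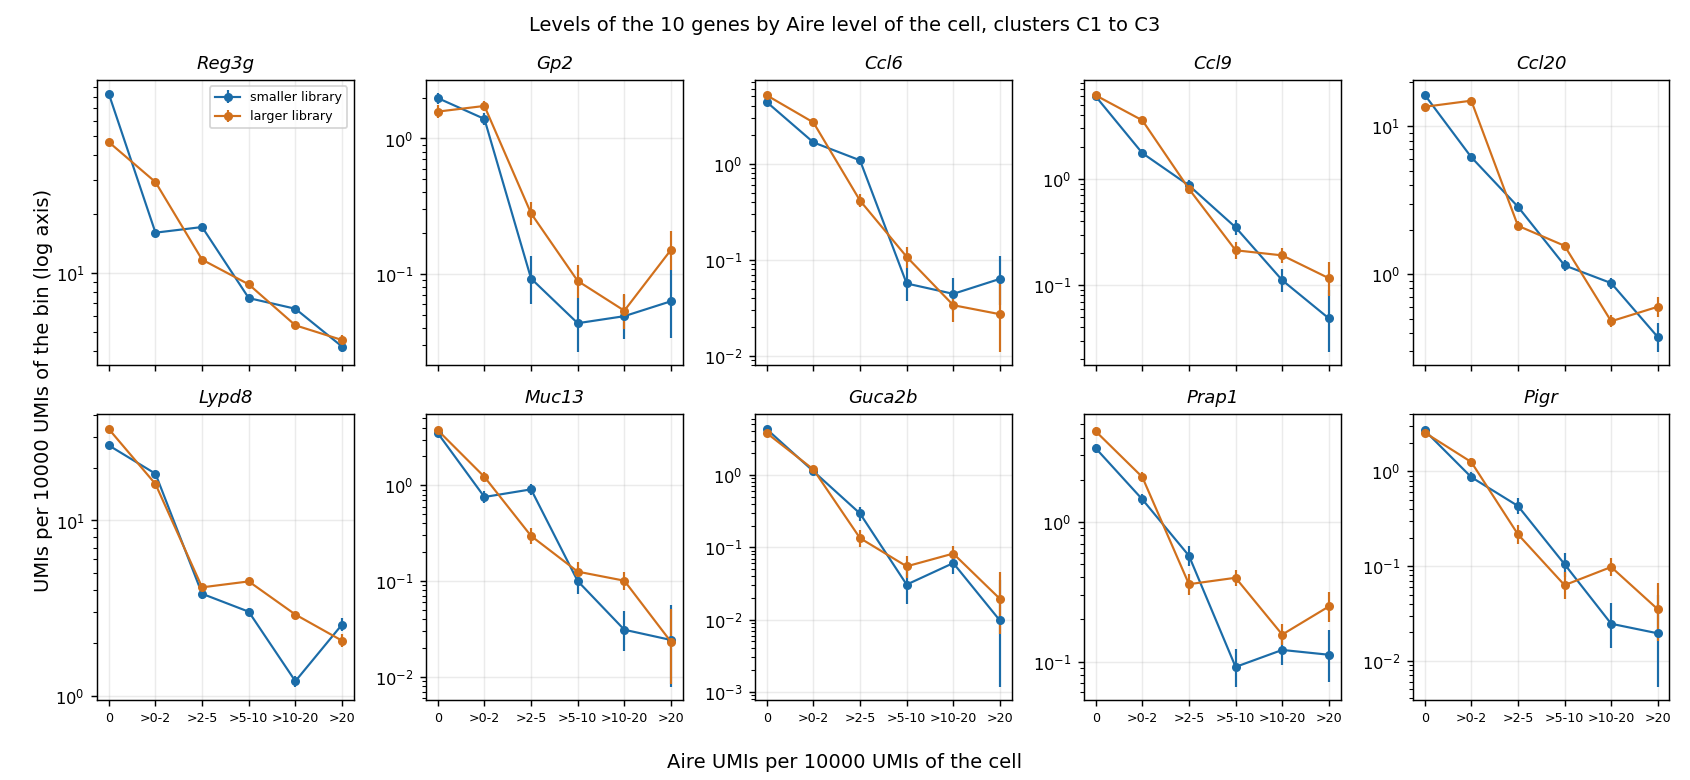
Level of each gene (log axis, UMIs per 10000 UMIs of the bin) in cells of C1 to C3 by Aire UMIs per 10000 of the cell, with exact Poisson 95% intervals, in the smaller (blue) and the larger library (orange). Each gene is lower in the 2 bins above 10 than in the 2 bins up to 2, in both libraries.

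Cells with over 10 Aire UMIs per 10000 were set against cells with at most 2. All 10 genes were lower by at least 1.5-fold in both libraries, as were 17.9% of the 10478 genes with enough UMIs. The median log2 ratio was -5.10 in the smaller and -4.60 in the larger library. It was smallest in size for Reg3g, at -2.94 (range -3.00 to -2.88) and -2.82 (-2.87 to -2.76). It was largest in size for Pigr in the smaller library, at -6.15 (-6.95 to -5.42), and for Ccl6 in the larger library, at -6.83 (-7.40 to -6.30). The makeup of the bins differed, since F12 cells were 41.3% and 44.0% of the cells without Aire and 0 and 0.6% of those with over 20. Median depth was also lower without Aire, 14004 and 11744.5 UMIs against 18659 and 14961. Within C2 alone all 10 genes were again lower by the fold in both libraries, as were 11.2% of 5832 genes, with medians of -3.90 and -2.56.

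Over all kept cells the relation was another. Here the cells without Aire include cTECs, Ccl21a+ cells and tuft-like cells. Reg3g had a positive r with Aire, 0.28 in 3233 and 0.31 in 5070 cells, while the 10 genes had a median r of -0.02 and 0.01. All genes but Reg3g and Muc13 were highest in cells with above 0 to 2 Aire UMIs per 10000 in both libraries, with 7.94 and 4.48 for Lypd8 and 2.64 and 4.15 for Ccl20. Within C2 all 10 genes had a negative r with Aire, with a median of -0.22 and -0.25. No share of all genes with a negative r was set beside this count.

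Each gene's closest genes were taken by r over all kept cells, as the lower value of the 2 libraries, among 12595 genes with at least 500 UMIs. For Ccl6 they were Ccl9, Ccl20 and Fabp1, and for Gp2 Ccl6, Sox8 and Ccl9. Sox8, a transcription factor of microfold cells, had r of 0.32 and 0.31 with Gp2. Sox8 was not particular to C2, at 0.27 UMIs per 10000 there over both libraries. In the tuft-like C9, which also held Gp2, it was at 0.25 in the smaller and 0.26 in the larger library. Bcl2a1b, of the Bcl2 family, was among those of Ccl20, with r of 0.44 and 0.47. Hsd17b6, Lgals4 and Pigr led for Muc13, with 0.55 and 0.57 for Hsd17b6. Lgals4, a galectin of enterocytes, was among the closest 3 of Muc13, Guca2b and Prap1. Gpa33, a surface antigen of intestinal epithelium, and 2210407C18Rik were among those of both Lypd8 and Pigr. Reg3g had no other of the 10 genes among its closest 3. These were Csn2, a casein of milk (0.48 and 0.56), AW112010 and the ubiquitin-like gene Ubd.

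Lists of genes of gut epithelial cells were set against the 2 groups in C2. A gene was counted with a group where its mean r with that group was higher by over 0.05 in both libraries than with the other. Of 13 microfold cell genes, 10 were counted with the chemokine group and 0 with the enterocyte group, against 8.20% and 11.6% of 12585 genes. Among them were Anxa5, Serpinb1a and Clu. Spib, Tnfaip2 and Sox8, named after their values were seen, had r of 0.59, 0.47 and 0.59 with Ccl9 in the smaller and 0.55, 0.50 and 0.53 in the larger library. Other counted genes were correlated with Muc13 too, Serpinb1a at 0.37 and 0.41 and Clu at 0.35 and 0.34. Icosl, which was not counted, was at -0.11 and -0.15 with Ccl9. Spib was not particular to C2, at 1.30 UMIs per 10000 there over both libraries. In the tuft-like C9 it was at 2.90 in the smaller and 2.38 in the larger library. Of 23 enterocyte genes with enough UMIs, 2 were counted with the chemokine group, Fabp1 and Krt20, and 14 with the enterocyte group. Among the 14 were Saa3, Saa1, Nos2 and Lgals4. Lgals4 had r of 0.63 and 0.61 with Muc13 and 0.29 and 0.33 with Ccl9. Of 10 goblet and secretory genes, 0 and 5 were counted, of 14 other chemokine genes 0 and 1, and of 12 NF-kB pathway genes 5 and 2. The 5 were Tnfrsf11a, Relb, Nfkbia, Traf6 and Map3k14, and Tnfrsf11a is on the microfold cell list too. These counts rest on a difference, so a counted gene can have r near 0 with its group. Relb, Traf6 and Map3k14 had r of 0.00 to 0.07 with Ccl9. Nfkbia was at 0.03 and -0.03 with Ccl9 and at -0.17 and -0.20 with Muc13. Nos2, counted with the enterocyte group, was at -0.16 and 0.06 with Muc13. The lists were written with earlier results known and are a description of these cells.

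Markers of other cells were also summed in F12. The 5 goblet and secretory markers summed to 24.999 and 18.5 UMIs per 10000, of which Fcgbp made up 88.8% and 96.3%, against 13.6 and 12.0 over all kept cells. Spdef and Muc5b were at 0 in the smaller library. The 10 myeloid markers summed to 9.63 and 9.62 UMIs per 10000, of which Lyz2 made up 79.1% and 75.95%. Over all kept cells they summed to 4.51 and 3.95, and in C2 to 12.8 and 12.7. In F12, 8 and 9 of the 10 were detected. Tyrobp was at 0 in both libraries and Adgre1 in the smaller. The 10 thymocyte markers summed to 0.13 and 0.80, and the 4 epithelial markers to 43.8 and 45.2. The 11 tuft markers summed to 1.38 and 0.87 in F12. The part of Fcgbp and Lyz2 in the levels of the 10 genes was not tested.

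Between the libraries, all 10 genes were lower in the larger library when all kept cells were summed. No share of all genes lower in the larger library by any amount was set beside this count. The median log2 ratio of the larger over the smaller library was -0.48, against -0.05 over all genes tested. Guca2b had 0.296 UMIs per 10000 in the smaller and 0.166 in the larger library, a log2 ratio of -0.84 (range from counting error -0.99 to -0.68). Reg3g had 9.18 and 5.62 (-0.71, -0.73 to -0.68), and Gp2 0.303 and 0.192 (-0.66, -0.80 to -0.51). These 3 genes were lower by at least 1.5-fold, as were 8.78% of 16986 genes, and none was higher by that fold, as were 1.61%. The ratios of the other 7 genes ran from -0.57 for Ccl6 to -0.20 for Ccl9 and Prap1. With 1 library per condition no ratio has a replicate check.

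A few cells set part of these ratios. Without the cell with the most UMIs of each gene in each library, Ccl6 was at -0.72, Reg3g at -0.64 and Lypd8 at -0.18, in place of -0.57, -0.71 and -0.31, and 4 genes were lower by the fold.

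Within C2 the genes differed less between the libraries. The median ratio was 0.04, 0 of the 10 genes were lower by 1.5-fold, as were 3.76% of 10156 genes, and 0 were higher, as were 2.20%. Reg3g was at -0.54 (-0.58 to -0.50) and Guca2b at -0.25 (-0.41 to -0.09). Ccl20 was at 0.20 (0.13 to 0.27), Prap1 at 0.20 (0.05 to 0.34) and Lypd8 at 0.12 (0.07 to 0.17). Gp2 was at 0.00 (-0.19 to 0.19). In F12 the median was 0.18, Reg3g was at -0.39 (-0.43 to -0.35) and Gp2 at 0.45 (0.24 to 0.66). A single F12 cell held 4941 of 21529 Reg3g UMIs in the smaller library, and another held 2576 of 14587 in the larger. Both cells lie in C2 too, and the Reg3g ratios in F12 and C2 were not computed without them. In F6 the median was 0.10, Reg3g was at -0.79 (-0.90 to -0.68) and Gp2 at -2.73 (-3.81 to -1.72). The Gp2 ratio in F6 rests on 98 and 15 UMIs, and 51 of the 98 came from 1 cell. F12 cells were 3.68% of the cells of the smaller and 2.43% of the larger library. With each cluster given the same weight in both libraries the median ratio was 0.08, from -0.30 for Guca2b to 0.29 for Prap1. A difference between conditions, between pools of mice and between runs cannot be told apart here.

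**Figure D5:**
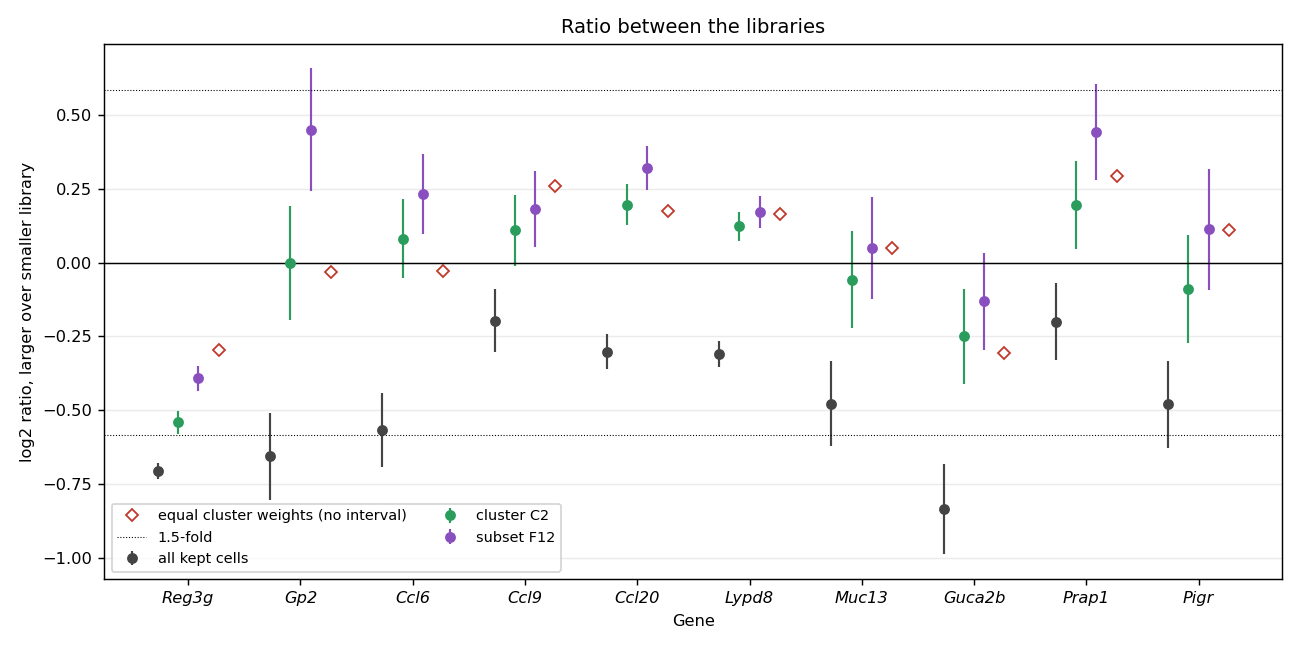
Log2 ratio of the larger over the smaller library for each gene, over all kept cells (grey), in C2 (green) and in F12 (purple), with ranges from the opposite ends of the exact Poisson 95% intervals, and at equal cluster weights (open diamonds, no interval). All 10 ratios are below 0 over all kept cells, where the median over all genes tested is -0.05. Those in C2 and F12 lie nearer to or above 0.

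The related gene lists showed the following between the libraries over all kept cells, in counts past 1.5-fold and medians. Over all genes tested, 8.78% were lower and 1.61% higher in the larger library. Of 28 enterocyte genes with at least 100 UMIs, 9 were lower in the larger library and 1, Alpi, was higher, with a median log2 ratio of -0.44. Of the 5 with the most UMIs, Saa3 was at 0.02, Cdx1 at 0.00, Saa1 at -0.86, Apoa4 at -0.70 and Nos2 at -0.39. Reg3b, a lectin close to Reg3g and named after its value was seen, had 0.893 and 0.155 UMIs per 10000. Of 13 microfold cell genes, 0 were past the fold in either direction, with a median of 0.00. Of 12 goblet and secretory genes 7 were lower and 0 higher (median -0.60), of 17 other chemokine genes 1 was lower and 1 higher (0.11), and of 12 NF-kB pathway genes 0 were past the fold (-0.01).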

How the data were processed

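TECs of 2 pools of mice were measured by droplet scRNA-seq. The authors aligned reads to the mouse genome and deposited unnormalized counts of UMIs per gene and barcode, for barcodes called as cells. The matrix headers name Cell Ranger 5.0.1, and the submitters' processing notes name version 5.1. The 10 genes, gene lists and comparisons were chosen with earlier results of these data known. The libraries held 58185309 and 82201657 UMIs in all.

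A gene entered the number of detected genes of a cell if 5 or more barcodes of its library had it. Seurat 5.3.0 in R 4.3.3 was used with 3000 variable genes, 2000 integration features, 20 principal components and a resolution of 0.5. All 10 genes were among the integration features and were left out of the clustered genes. Clusters were named from marker lists. F6 and F12 come from a resolution of 1.0. Thinning drew 4000 UMIs per cell and left out 5 cells. Log2 ratios used 0.5 added UMIs. Shares and medians of these ratios over all genes, and counts of listed genes past the fold, used genes with at least 100 UMIs in the cells compared. Medians of the 10 genes used all 10. Shares have exact Clopper-Pearson and sums exact Poisson 95% intervals. Both cover counting error alone. With 1 library per condition no test was made. The genes named are the 10 genes, Aire, the 3 closest genes of each by r, and from each list up to 5 genes with the most UMIs, unless stated. The ratio between libraries was tested on simulated Poisson counts of summed cells. These lack the concentration of UMIs in few cells seen here, so that run cannot show whether the ranges are wide enough. Alternatives changed the cell limits, the clustering, the fold, the added UMIs, the summary over cells and the thinning. Removal of the shared barcodes, removal of the top cell and the Aire comparison in C2 alone were added after seeing the data. No doublet caller was run. Python 3.11.15, numpy 2.4.6, scipy 1.17.1, pandas 2.3.3 and matplotlib 3.10.9 were used.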

Additional observations from a re-analysis of the deposited data

Results flagged for a closer look

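Ratios were compared over the clusters where both libraries had 100 cells or more and the gene had 100 UMIs or more. For 2 genes, Reg3g and Ccl20, the ranges of the log2 ratio between the libraries lay on opposite sides of 0 in some of these clusters, and the pair farthest apart is given for each. With fewer UMIs, or in smaller clusters, other genes had such pairs too. The difference between the clusters was not tested, and with 1 library per condition it could not be. Reg3g was at -2.83 in C7 and at 1.09 in C4. In C7 a single cell of the smaller library held 797 of 915 Reg3g UMIs, and without the top cell of each library the ratio in C7 was -0.11 (-0.57 to 0.34), while that in C4 was 0.87 (0.11 to 1.64). The C4 values rest on 49 and 95 UMIs. Ccl20 was at -2.52 in C0, from 81 and 22 UMIs, and at 0.20 in C2. Without the top cells, C0 was at -2.18 (-3.24 to -1.18) and C2 at 0.19 (0.11 to 0.26). All of these C0 levels are a small fraction of that in C2, and the part of free RNA in them was not tested.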

How the results depend on the processing

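No result changed its direction under any alternative run. Of 48 recomputed summary values, 39 stayed within their spread or, for counts, within 1.5 times. Equal cluster weights were counted as a result of their own, although their median ratio was 0.08, against -0.48 over all kept cells. The count of 3 genes lower by 1.5-fold in the larger library became 5 without the top 1% of cells, 5 after thinning to 4000 UMIs and 0 at a fold of 2. The median ratio of -0.48 over all kept cells became -0.80 without the top 1% of cells. The median in C2 of 0.04 became 0.21 in the matched cluster when libraries were merged without integration. That cluster held 1580 cells, 608 of them from C2. The other matched clusters also differed from C2. At a resolution of 1.0 it was F6, with 605 cells and without F12. With the 10 genes kept among the clustered genes it held 1604 cells, 636 of them from C2. The Aire medians of -5.10 and -4.60 became -2.97 and -2.41 without the top 1% of cells, and -3.90 and -2.56 in C2 alone. The cause was not tested. For single genes, 22 of 90 ratios moved, and all 90 stayed below 0, from -2.13 for Guca2b without the top 1% of cells to -0.02 for Lypd8 after thinning. The number of genes with their highest level in 1 cluster was 9 or 10 under the other clusterings, against 7. That cluster was not the same one throughout. It was F12 with 242 cells at a resolution of 1.0, and held 1146 cells, 889 from C2, at 0.3. With the 10 genes kept among the clustered genes it held 436 cells, 252 from C2. Without integration it held 435, 254 from C2. Where the 10 genes were kept they helped to form the clusters, so that count is no independent check. The Aire comparison was not run with a lower limit of 1000 detected genes. No paired analysis was possible because each condition has 1 library and the labels give no replicate numbers. Depth limits the values in clusters where a gene has fewer than 100 UMIs.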

Other observations

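Muc13 was also found in the ciliated-like cluster C13, at 1.34 UMIs per 10000 in the 7 cells of the smaller library and at 2.13 in the 13 cells of the larger library. The highest cells held 17 of 25 and 20 of 57 of these UMIs. Pigr was high in the neuroendocrine-like cluster C12, at 2.42 in 23 cells and 4.30 in 18 cells, with 12 of 60 and 19 of 55 UMIs in the highest cell. Reg3g in C12 was at 14.1 and 16.7, with 183 of 350 and 144 of 213 UMIs in 1 cell of each library.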
